A study of Homo sapiens with 16 samples.

Results

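The integrin and laminin chains are 34 genes that encode the adhesion receptors of the cell surface and a principal family of the basement membrane proteins they bind. They were taken by symbol from a table of 40663 gene symbols and comprise 16 integrin alpha chains, 8 integrin beta chains and 10 laminin chains. Bulk RNA-seq covered 16 libraries, 4 per group, of a human colon fibroblast line named Ccd18-Co. The unstimulated group received the solvent DMSO and no cytokines; its columns in the table read none where its sample titles read dmso. The other 3 groups, which the labels call combo, all went through 3 pulses of a cytokine mix, each pulse being 72 h with 10 ng/ml of each of TNF, OSM and IL-17A and 0.1 ng/ml of IL-1B, and then 96 h of recovery. After 1 week of rest they were given DMSO (the vehicle group), 250 nM belinostat, an inhibitor of histone deacetylases, or 10 µM GSK-J4, an inhibitor of H3K27 demethylases, for 5 days, and RNA was taken 2 weeks after the compounds ended. Every library came from the same line, and the labels do not say which libraries came from separate cultures. The p-values therefore measure only the spread between these samples. The design asks which changes last after the cytokine pulses, and whether either compound shifts them.

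Integrins are heterodimers of an alpha and a beta chain that span the plasma membrane and join the extracellular matrix outside to the actin cytoskeleton inside. Laminins are heterotrimers of an alpha, a beta and a gamma chain that assemble into the sheet of the basement membrane, and several integrins are their receptors. In the gut wall, fibroblasts under the epithelium make part of that sheet and hold to fibronectin and collagen through integrins that contain the beta 1 or alpha V chain.

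The libraries held 14.4 to 19.5 M estimated counts each, and size factors lay between 0.819 and 1.126. All 8 fibroblast markers checked, among them COL1A1, DCN and PDGFRA, had at least 10 normalized counts in every library, whereas none of 6 epithelial markers did and KRT20 and MUC2 were at 0 throughout. Among 6 leukocyte markers CD14 alone reached 10 in every library and CD3E was at 0 in all of them. The summed endothelial list lay between 7358 and 10171 normalized counts, nearly all of it from TEK, while CDH5 was at 0 in the 3 cytokine groups. Belinostat replicate 17 stood apart from its group: its mean squared deviation from the other 3 belinostat libraries was 26.5 to 31.6 times sampling noise, against 3.69 to 4.70 between those 3. It held the highest or lowest value of its group for 22 of the 28 chains described below. Unstimulated replicates 1 and 3 and GSK-J4 replicate 21 did so for 20 each. The summed fibroblast markers of belinostat replicate 17, at 378827 normalized counts, lay under the 451209 to 472235 of the other 3 belinostat libraries. Unstimulated replicates 1 and 3 also differed by 31.3 times sampling noise. Results of the chains that rest on replicate 17 are given with and without it. Changes of single marker and partner genes are given with all libraries only.

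Of the 34 chains, 28 averaged at least 10 normalized counts in at least 1 group. A normalized count is here the estimated count divided by the library's size factor, and to compare levels between genes it was divided by the length in kb of the gene's representative transcript. Levels per kb fell into an upper set of 19 chains, averaging 145 to 9613 over all 16 libraries, and a lower set of 9 that averaged 1.93 to 13.5. The 6 chains under 10 were ITGAL, ITGAM, ITGAX, ITGB6, ITGB7 and LAMC3, most of which are chains of leukocyte or epithelial integrins. ITGAM, the alpha chain of a myeloid receptor, was at 0 in all 16 libraries, which allows up to 3 counts in each. The other 5 stayed at or under 15.3 normalized counts in every library.

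**Figure D1:**
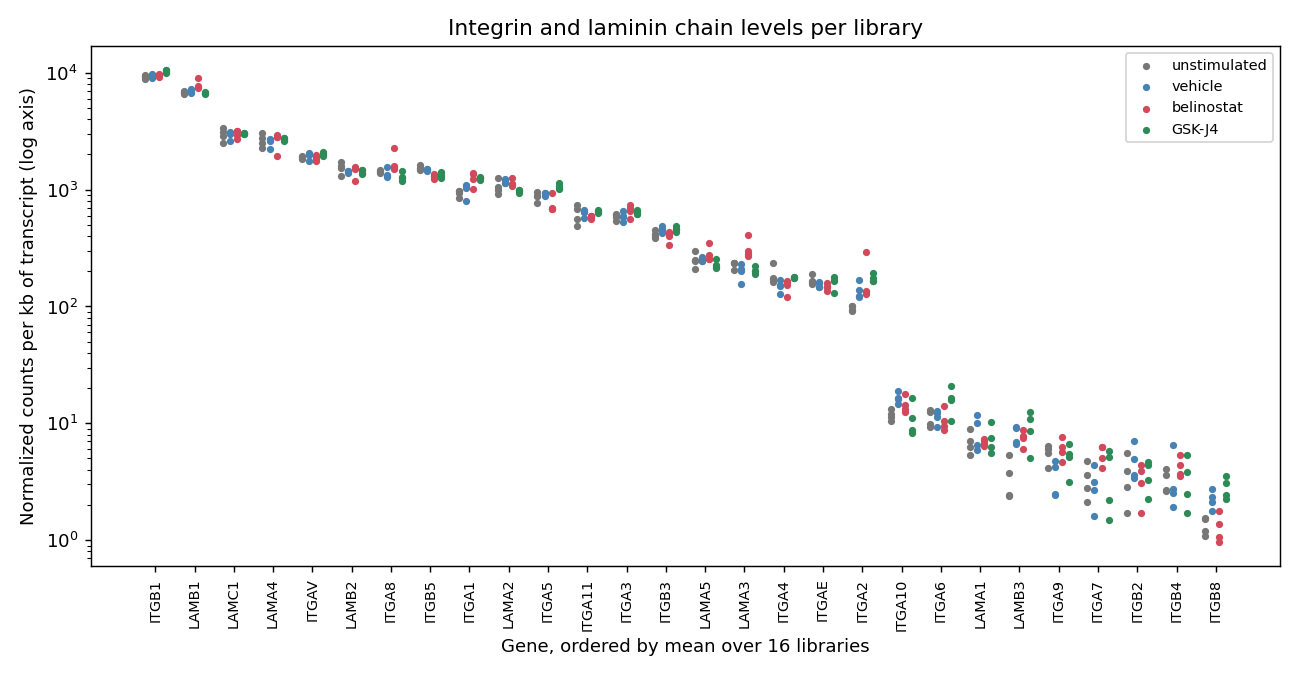
Level of the 28 expressed chains per library, in normalized counts per kb of transcript on a log axis, ordered by the mean over all libraries and coloured by group. ITGB1 and LAMB1 lie highest, and a gap separates ITGA2, at a mean of 145, from ITGA10, at 13.5.

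Among the beta chains, ITGB1, the shared partner of most matrix-binding alpha chains, was by far the most abundant, at 9613 normalized counts per kb over all libraries. It took 82.6% ± 0.51 (SD, n = 4) of all integrin beta chain counts per kb in unstimulated cells, 82.7% ± 0.37 with vehicle, 84.9% ± 0.89 with belinostat and 85.1% ± 0.62 with GSK-J4. ITGB5 and ITGB3, which pair with alpha V in receptors of vitronectin and other RGD proteins, followed at 1408 and 432 per kb, and their libraries did not overlap. ITGB2, ITGB4 and ITGB8 averaged between 1.93 and 3.81 per kb. The processed pseudogene ITGB1P1, whose sequence resembles ITGB1, carried 212 to 640 normalized counts per library, so reads may have been divided between the copies.

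Among the alpha chains, ITGAV, the partner of several beta chains in RGD receptors, led at 1939 normalized counts per kb, with library values from 1750 to 2113. ITGA8, an RGD-binding partner of beta 1 known in mesenchymal cells, came next at 1457, and its libraries, from 1181 to 2289, overlapped those of ITGAV. ITGA1, a collagen-binding chain, reached 1111 and ITGA5, the chain of the classical fibronectin receptor, 900 per kb, and these neighbours overlapped too. The collagen-binding ITGA11 and the laminin-binding ITGA3 lay almost level at 622 and 619. ITGA4, ITGAE and the collagen-binding ITGA2 lay between 145 and 165 with overlapping libraries, and ITGA10, ITGA6, ITGA9 and ITGA7 were at 13.5 or less. The antisense gene ITGA9-AS1 averaged 123 to 166 normalized counts by group against 27.3 to 47.7 for ITGA9. The counting is not stated to use strand and overlap of their exons was not checked, so reads of the pair may have been mixed.

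Among the laminins, the beta chain LAMB1 was second of all 34 at 7100 normalized counts per kb. LAMC1, the common gamma chain, followed at 2976 and the alpha chain LAMA4, typical of mesenchymal and vascular basement membranes, at 2635, with overlapping libraries. LAMC1 made up 99.96% to 99.98% of the counts per kb of the 2 gamma chains measured, by group. LAMA4 made up 59.7% to 65.8% and LAMA2, the chain of muscle basement membranes, 23.6% to 28.2% of the alpha chains. LAMB2 averaged 1457, LAMA5 253 and LAMA3 237 per kb, and LAMA1 and LAMB3 7.45 and 7.08. The value of LAMA3 was divided by the length of its long transcript, and would be higher per kb if the shorter one prevailed.

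The 4 comparisons were fitted together with DESeq2 over all genes, and a gene was called at an adjusted p under 0.05. Between vehicle and unstimulated cells, 1 of 30 chains tested was called, and it was higher (3.33%), where over all genes the share was 1.73%, with 1.10% higher and 0.633% lower. Belinostat against vehicle gave 6 of 28 (4 higher and 2 lower), 21.4%, where all genes gave 6.25%, with 3.12% higher and 3.13% lower. GSK-J4 against vehicle gave 3 of 26 (1 higher and 2 lower), 11.5%, where all genes gave 1.91%, with 1.10% higher and 0.817% lower. Belinostat against GSK-J4 gave 8 of 28 (5 higher and 3 lower), 28.6%, where all genes gave 12.2%, with 6.16% higher and 6.00% lower. These counts included chains that passed the filter on low counts through 1 group, so they describe the chains and carry no test. The median log2 fold change of the chains tested stayed near 0 in every comparison, at 0.03, 0.01, 0.05 and -0.02, and that of all genes lay between -0.0048 and 0.0035. By edgeR, 0, 2, 0 and 6 chains were called, and 6, 11, 7 and 9 had an unadjusted p under 0.05. Over all genes edgeR called 166 between vehicle and unstimulated cells and 91 between GSK-J4 and vehicle. Its counts over all genes for belinostat against vehicle and against GSK-J4 are not given here. The 2 and 6 chains that edgeR called there therefore have no share beside them. The share of all genes at an unadjusted p under 0.05 was not taken. Counts at that level, here and below, therefore have nothing to be set against. The comparisons of belinostat and of GSK-J4 with vehicle share the vehicle libraries, so their values are set side by side and not correlated.

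**Figure D2:**
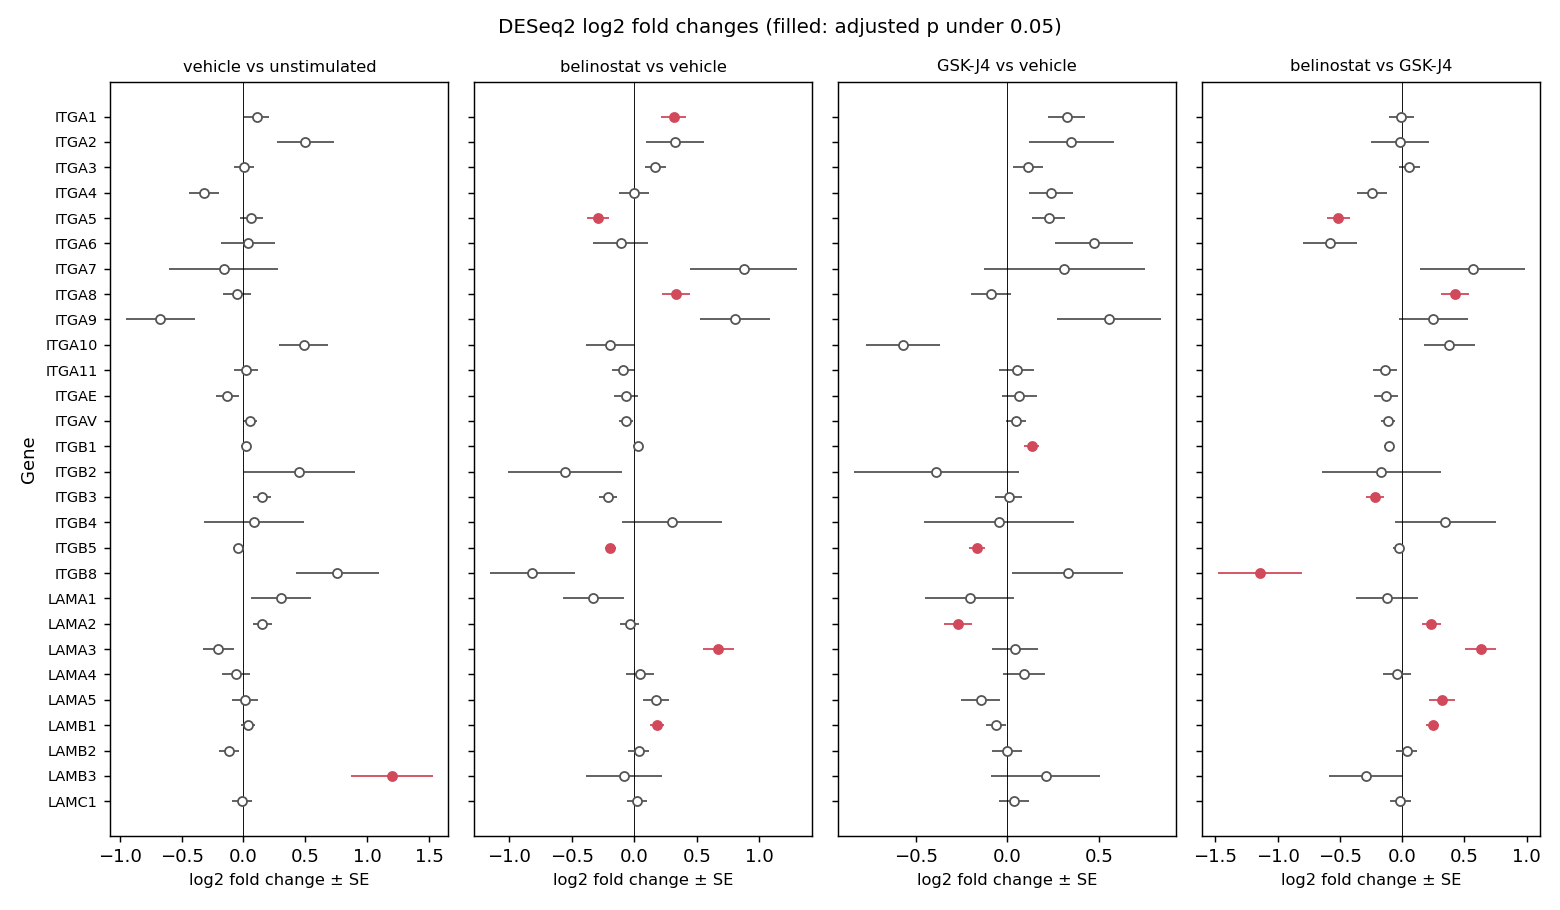
DESeq2 log2 fold change with its standard error for the 28 expressed chains in the 4 comparisons, each panel on its own horizontal scale; filled red points are called at an adjusted p under 0.05 and open points are not called or were not tested. The called chains number 1, 6, 3 and 8 from left to right, and the calls of highly expressed chains such as LAMB1 and ITGB5 are small in size.

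After the cytokine pulses the 1 chain called was LAMB3, a beta chain of the epithelial laminin that anchors keratinocytes, and it was scarce in these fibroblasts. Its normalized counts were 9.65, 15.0, 21.3 and 9.76 in unstimulated libraries 1 to 4 and 37.1, 26.8, 27.9 and 36.9 in vehicle libraries 13 to 16. All 4 vehicle libraries lay above all 4 unstimulated ones. The log2 fold change was 1.20 ± 0.33 (SE), 2.30-fold, with a DESeq2 adjusted p of 0.0216. In the belinostat group LAMB3 held 35.3, 24.4, 31.3 and 30.1 and in the GSK-J4 group 49.8, 44.03, 20.3 and 34.6 normalized counts, and neither group differed from vehicle past the threshold. The call was lost by edgeR (adjusted p = 0.0658) and on leaving out unstimulated replicate 1, 2 or 4, or else 13 or 16 of the vehicle libraries, where the DESeq2 adjusted p lay between 0.0673 and 0.137.

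The 250 bases before the RefSeq start of LAMB3 (GRCh38.p14, chr1:209652426-209652675, minus strand) are shown because this was the only chain that DESeq2 called after the cytokine pulses. Capitals mark matches, on either strand, to the motif of NF-kB, a factor through which TNF and IL-1B signal.
LAMB3: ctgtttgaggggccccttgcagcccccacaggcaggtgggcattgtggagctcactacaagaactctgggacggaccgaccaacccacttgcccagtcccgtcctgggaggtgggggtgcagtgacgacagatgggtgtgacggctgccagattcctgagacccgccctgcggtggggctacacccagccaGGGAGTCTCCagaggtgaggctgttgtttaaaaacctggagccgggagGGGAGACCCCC
There were 3 matches, and the pair next to the start overlaps on opposite strands. Searched in the same 250 bases before the start, the motif was found for 5.05% of 27305 genes of the RefSeq table and for 5 of the 24 chains in it. ITGA1, ITGA5, ITGA10 and ITGA11 also held the motif and were not called between vehicle and unstimulated cells. A match of letters is a description and no evidence of binding, and a part of NF-kB in the change of LAMB3 was not tested.

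A further 6 chains had an unadjusted p under 0.05 between vehicle and unstimulated cells without being called (DESeq2 adjusted p from 0.212 to 0.519). ITGB8 (log2 difference 0.76), ITGA2 (0.50), ITGA10 (0.48) and ITGB3 (0.15) had higher means with vehicle, and ITGA9 (-0.67) and ITGA4 (-0.32) lower ones. The groups did not overlap in ITGB8, ITGA2 and ITGA10. The shares of all genes at this unadjusted p, or without overlap, were not taken, so these chains are only described. ITGA2 held 794, 728, 791 and 723 normalized counts in the unstimulated and 955, 947, 1075 and 1318 in the vehicle libraries. These ITGA2 groups did not overlap, but the log2 difference of 0.50 ± 0.23 (SE) had a DESeq2 adjusted p of 0.459. It passed the threshold in the fit of the 8 libraries compared and without belinostat replicate 17, which enters the shared estimate of the spread (lowest DESeq2 adjusted p = 1.43e-05). The same 2 alternatives called ITGA2 between GSK-J4 and vehicle, where the log2 difference was 0.35 ± 0.23 (adjusted p = 0.694, lowest 0.00941). Without unstimulated replicate 3 LAMA2 was called between vehicle and unstimulated cells (log2 fold change 0.24, adjusted p = 0.00609).

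Belinostat raised laminin chains LAMA3 and LAMB1 and integrin alpha chains ITGA1 and ITGA8 against vehicle, and lowered ITGA5 and ITGB5. LAMA3, the alpha chain of epithelial laminins, showed the largest of these changes. It held 2242, 2440, 2131 and 1648 normalized counts in vehicle libraries 13 to 16, and 4385, 2995, 3185 and 2904 in belinostat libraries 17 to 20. Unstimulated libraries held 2487, 2204, 2533 and 2521, and GSK-J4 libraries 2385, 2145, 2037 and 2127. Every belinostat library was above every library of the other 3 groups, and replicate 17 was the highest. The log2 fold change against vehicle was 0.67 ± 0.12 (SE), with a DESeq2 adjusted p of 6.76e-06, and against GSK-J4 0.63 ± 0.12, with an adjusted p of 1.37e-05. Without replicate 17 these were 0.52 ± 0.10 and 0.48 ± 0.10, and both calls held under all 20 alternatives tried.

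The window shown for LAMA3 (GRCh38.p14, chr18:23872770-23873019, plus strand) precedes the start of its shorter transcript, an internal start that lies in an intron of the long one, since the gene begins at position 23689453. Capitals mark the AP-1 motif, TGANTCA, for the factor family that responds to growth factors and cytokines; it is shown because LAMA3 had the largest change among the chains called between belinostat and vehicle, and was the only one of the 24 chains with a window to hold a match.
LAMA3: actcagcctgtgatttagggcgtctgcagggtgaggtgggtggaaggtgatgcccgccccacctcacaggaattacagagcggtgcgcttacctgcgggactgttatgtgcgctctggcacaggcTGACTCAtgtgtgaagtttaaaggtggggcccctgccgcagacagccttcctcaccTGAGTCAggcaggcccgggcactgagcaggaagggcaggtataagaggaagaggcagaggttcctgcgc
The 2 matches lie 119 to 125 and 63 to 69 bases before the start, and 6.6% of the 27305 windows held at least 1. The table gives counts per symbol, so which start was used cannot be told from it.

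LAMB1, the beta chain of the most widespread laminins, rose by less, on a far higher level. Vehicle libraries held 37993, 38847, 40129 and 40760 normalized counts and belinostat libraries 50693, 42870.5, 41541 and 43883. All 4 belinostat libraries were above all vehicle libraries, with replicate 17 again the highest. The log2 fold change was 0.18 ± 0.05 (SE), with a DESeq2 adjusted p of 0.0164; without replicate 17 it was 0.12 ± 0.04 and the adjusted p 0.0200. The call was lost by edgeR (adjusted p = 0.0852), in a fit of the 8 libraries compared (0.109) and without vehicle replicate 13 or 14 (0.103 and 0.0686). Against GSK-J4, where the libraries held 37620, 36847, 37848 and 38826, LAMB1 was higher by 0.24 ± 0.05 (adjusted p = 0.00016), and that call held under all 20 alternatives.

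ITGA1, whose heterodimer with beta 1 binds collagen IV and other collagens, had 10996, 11845, 11635 and 8654 normalized counts in the vehicle libraries. In the belinostat libraries it had 10876, 15024, 14514 and 13220.4, where replicate 17 was the lowest and lay among the vehicle values. The log2 fold change was 0.31 ± 0.10 (SE), with a DESeq2 adjusted p of 0.0318, and 0.40 ± 0.09 without replicate 17 (adjusted p = 0.000176). It was no longer called by edgeR (adjusted p = 0.078), in the fit of the 8 libraries (0.116), or without vehicle replicate 13 or 16 or belinostat replicate 18, 19 or 20 (0.0754 to 0.18). GSK-J4 libraries, at 13739, 13581, 12994 and 13595, did not overlap vehicle. Their log2 difference of 0.32 ± 0.10 had an adjusted p of 0.0619, and it passed the threshold without belinostat replicate 17 (0.00501) or unstimulated replicate 1 (0.048) and in the fit of the 8 libraries (0.00328). Belinostat and GSK-J4 differed by -0.01 ± 0.10 on the log2 scale in ITGA1.

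ITGA8 rose with belinostat largely through 1 library. Vehicle libraries held 8385, 8794, 10277 and 8537 normalized counts, and belinostat libraries 14987, 10434, 9859 and 10152. The groups overlapped, and replicate 17 lay far above the other 3. With it the log2 fold change was 0.34 ± 0.11 (SE), with a DESeq2 adjusted p of 0.0405, and without replicate 17 it was 0.17 ± 0.07, with an adjusted p of 0.134. It was also lost by edgeR (adjusted p = 0.0907), with TMM size factors (0.0558), in the fit of the 8 libraries (0.126), and on leaving out unstimulated library 2 or 4, vehicle library 13, 14 or 16 or GSK-J4 library 23 or 24 (0.0528 to 0.168). Against GSK-J4, at 9423, 7735, 8442 and 8213, the difference was 0.43 ± 0.11 (adjusted p = 0.00204) with no overlap. That call held under all 20 alternatives, including 0.26 ± 0.07 without replicate 17 (adjusted p = 0.00302).

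The 250 bases before the start of ITGA8 (GRCh38.p14, chr10:15719923-15720172, minus strand) are shown for a chain higher with belinostat, and those of ITGA5 (chr12:54419267-54419516, minus strand) for one that was lower. Capitals mark GC boxes, GGGCGG or its reverse complement, in ITGA8 and the NF-kB motif in ITGA5.
ITGA8: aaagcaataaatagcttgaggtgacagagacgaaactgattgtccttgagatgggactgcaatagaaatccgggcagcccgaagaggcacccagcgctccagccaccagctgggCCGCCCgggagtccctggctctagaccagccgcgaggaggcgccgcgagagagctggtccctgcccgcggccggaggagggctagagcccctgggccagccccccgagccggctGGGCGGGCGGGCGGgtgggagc
ITGA5: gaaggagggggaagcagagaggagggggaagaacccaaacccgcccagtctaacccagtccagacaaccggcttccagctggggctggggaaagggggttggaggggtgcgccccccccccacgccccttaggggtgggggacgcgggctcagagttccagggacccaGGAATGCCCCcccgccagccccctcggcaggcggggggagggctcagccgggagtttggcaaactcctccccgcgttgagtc
ITGA8 held 4 GC boxes, of which 3 overlap within the last 22 bases; 42.31% of the 27305 windows and 13 of the 24 chains' windows held at least 1. ITGA5 held 1 NF-kB match, 73 to 82 bases before the start. Its window also held 1 GC box, and other motifs searched matched in both windows, none of which is marked. As for LAMB3, a match of letters is no evidence of binding. A part of these motifs, or of that in LAMA3, in the changes with belinostat was not tested.

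ITGA5, the fibronectin-binding partner of beta 1, moved the other way. Vehicle libraries held 3880, 3946, 3745 and 3949 normalized counts, and belinostat libraries 3956, 2956, 2891 and 2890. Replicate 17 was the highest of all 8, and the other 3 belinostat libraries were below every vehicle library. With replicate 17 the log2 fold change was -0.29 ± 0.09 (SE), with a DESeq2 adjusted p of 0.0293, and without it -0.41 ± 0.06 (7.74e-09). Calls were lost by edgeR (adjusted p = 0.0751), in the fit of the 8 libraries (0.0737) and without any 1 of the 4 vehicle libraries or of belinostat replicates 18 to 20 (0.0519 to 0.15). GSK-J4 libraries held 4601, 4821, 4410.1 and 4288, above every vehicle library, with a log2 difference of 0.22 ± 0.09 (adjusted p = 0.278); without belinostat replicate 17 the adjusted p was 0.0068 and in the fit of the 8 libraries 0.000122. Between the compounds ITGA5 was lower with belinostat by -0.51 ± 0.09 (adjusted p = 8.6e-07), a call that held under all 20 alternatives.

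ITGB5, a partner of alpha V, was lower with either compound. Vehicle libraries held 6727, 6541, 6449 and 6634 normalized counts, belinostat libraries 5434, 6021, 5781 and 5822, and GSK-J4 libraries 6221, 5573, 5882 and 5809.9. Neither compound group overlapped vehicle. On the log2 scale the change was -0.19 ± 0.04 (SE) with belinostat (DESeq2 adjusted p = 0.000612), a call that held under all 20 alternatives, and -0.17 ± 0.04 with GSK-J4 (adjusted p = 0.0152). The GSK-J4 call was lost by edgeR (adjusted p = 0.133) and on leaving out vehicle library 13, 14 or 16 or GSK-J4 library 22, 23 or 24 (0.0624 to 0.138). The 2 compounds differed by -0.03 ± 0.04 (adjusted p = 0.814), which does not show that they act alike.

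**Figure D3:**
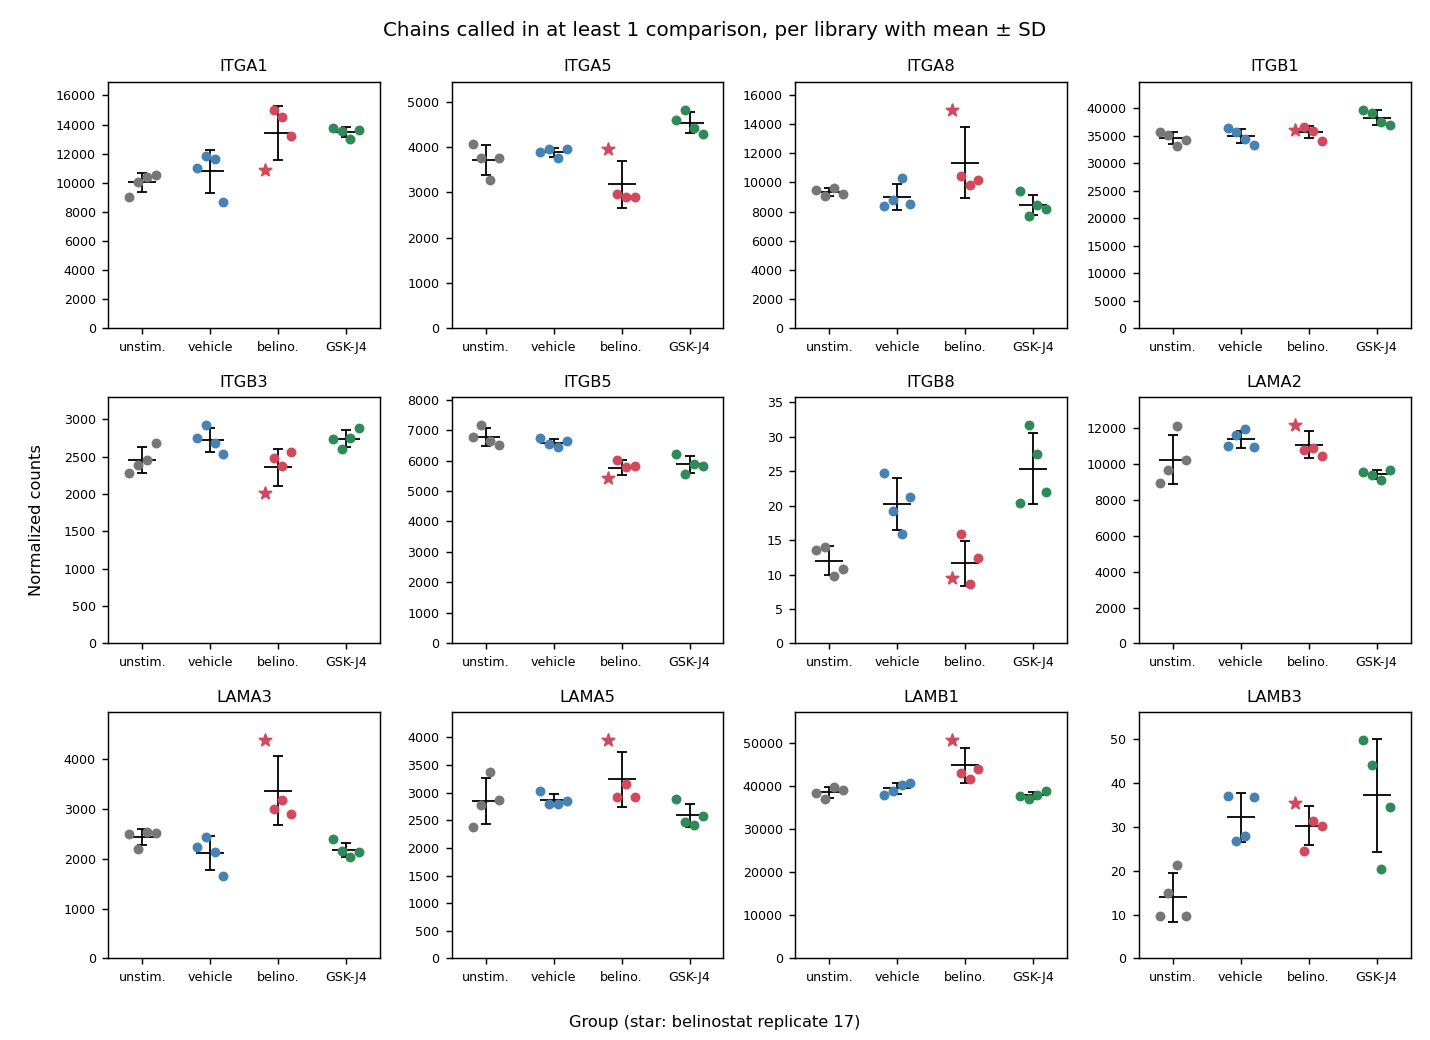
Normalized counts of the 12 chains called in at least 1 comparison, 1 point per library on axes that start at 0, with the mean and SD of each group of 4 as black bars; the star is belinostat replicate 17. The star is the highest of its group in ITGA5, ITGA8, LAMA2, LAMA3, LAMA5, LAMB1 and LAMB3, and the lowest in ITGA1, ITGB3 and ITGB5.

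Without belinostat replicate 17, 6 chains were again called against vehicle, but ITGA8 left and ITGA3, a laminin-binding alpha chain, entered (log2 fold change 0.24 ± 0.07, DESeq2 adjusted p = 0.0148). ITGA2, which binds collagen I, held 2283, 1060, 1042 and 1010.2 normalized counts in belinostat replicates 17 to 20, and replicate 17 was the highest of all 16 libraries. With all 16 libraries ITGA2 did not differ between belinostat and GSK-J4 past the threshold, at -0.02 ± 0.23 on the log2 scale. Without replicate 17 it was lower with belinostat by -0.40 ± 0.10 (adjusted p = 0.00115).

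**Figure D4:**
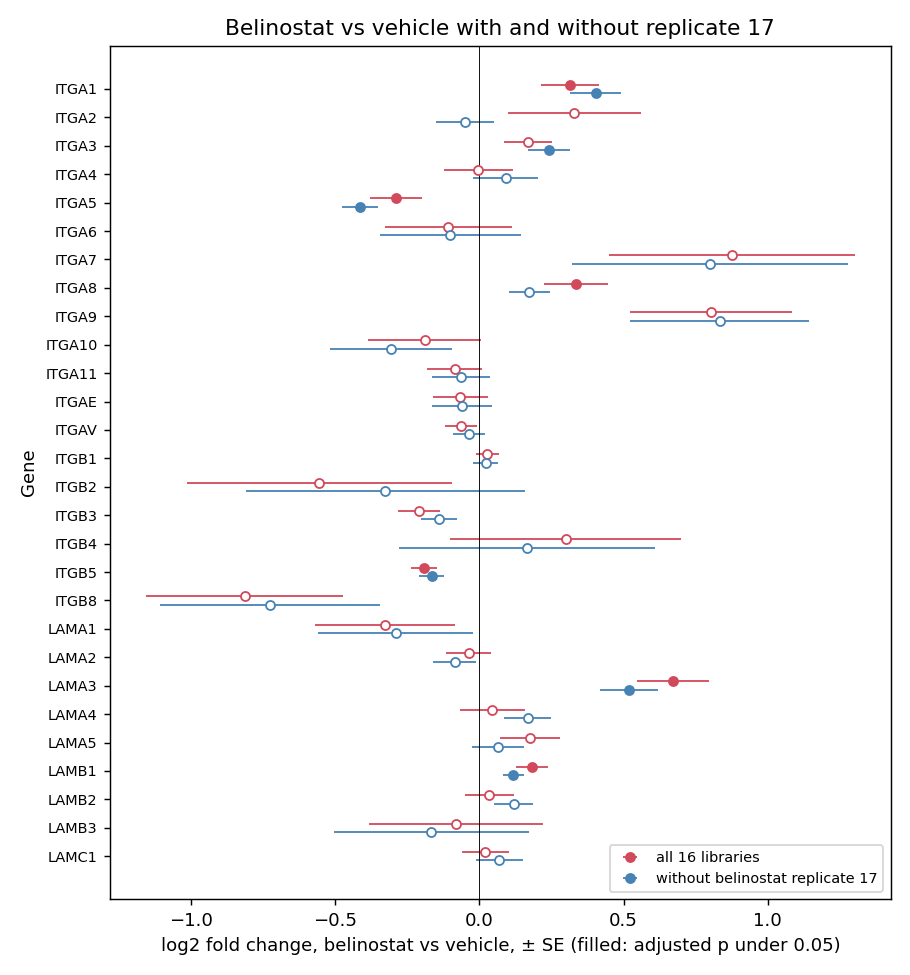
Log2 fold change between belinostat and vehicle with its standard error for the 28 expressed chains, with all 16 libraries in red and without belinostat replicate 17 in blue; filled points are called at an adjusted p under 0.05. Leaving out the library moved ITGA8 from 0.34 to 0.17 and ITGA5 from -0.29 to -0.41, while LAMA3 moved from 0.67 to 0.52.

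GSK-J4 raised ITGB1 and lowered ITGB5 and LAMA2 against vehicle. ITGB1 held 36408, 35748, 34445 and 33386 normalized counts in the vehicle and 39778, 39152, 37545 and 36921 in the GSK-J4 libraries. The groups did not overlap. DESeq2 gave a log2 fold change of 0.13 ± 0.04 (SE), with an adjusted p of 0.0499, at the edge of the threshold. It was lost under 13 of 20 alternatives, including edgeR (adjusted p = 0.308), TMM size factors (0.0785) and a filter on low counts (0.0503), and on leaving out unstimulated library 2 or 4, vehicle library 14, 15 or 16, belinostat library 18 or 19 or GSK-J4 library 21, 22 or 23 (0.0653 to 0.269).

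LAMA2, the alpha chain of muscle laminin that binds dystroglycan, fell by 0.27 ± 0.08 (SE) on the log2 scale with GSK-J4, with a DESeq2 adjusted p of 0.0295. Vehicle libraries held 10999, 11648, 11949 and 10941 normalized counts, and GSK-J4 libraries 9569, 9400, 9108 and 9683. The groups did not overlap. The call was lost by edgeR (adjusted p = 0.129) and without any 1 of the 8 libraries compared (0.0525 to 0.177); in a fit of those 8 alone the adjusted p was 1.27e-08. Belinostat libraries, at 12209, 10806, 10886 and 10471, stayed above the GSK-J4 ones, by 0.23 ± 0.08 (adjusted p = 0.025). That difference was not called by edgeR (adjusted p = 0.0527) or without belinostat replicate 17 or GSK-J4 replicate 21, 22 or 23 (0.0535 to 0.0963).

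The 2 compounds were also compared directly. Besides LAMA3, LAMB1, ITGA8, ITGA5 and LAMA2, given above, belinostat exceeded GSK-J4 in LAMA5 and was lower in ITGB3 and ITGB8. LAMA5, a chain of epithelial and vascular basement membranes, held 3955, 2923, 3147 and 2923 normalized counts with belinostat and 2884, 2475, 2420 and 2580 with GSK-J4. The groups did not overlap, though replicates 18 and 20 lay close above the highest GSK-J4 library. The log2 difference was 0.32 ± 0.11 (SE), with a DESeq2 adjusted p of 0.0233, and without belinostat replicate 17 it was 0.21 ± 0.09 (0.108); without GSK-J4 replicate 22, 23 or 24 the adjusted p was 0.0602 to 0.0995.

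ITGB3, a partner of alpha V, held 2009, 2476, 2381 and 2562 normalized counts with belinostat and 2731, 2600, 2743 and 2877 with GSK-J4. The groups did not overlap, and replicate 17 was again the outermost. The log2 difference was -0.22 ± 0.07 (SE), with a DESeq2 adjusted p of 0.0334; it was -0.15 ± 0.06 without replicate 17 (0.103) and was also lost by edgeR (0.0613), in the fit of the 8 libraries (0.0562) and without belinostat replicate 19 or GSK-J4 replicate 21, 23 or 24 (0.064 to 0.121). Vehicle libraries held 2748, 2927, 2686 and 2537 normalized counts of ITGB3. Against vehicle ITGB3 differed by -0.21 ± 0.07 with belinostat (DESeq2 adjusted p = 0.0672) and by 0.01 ± 0.07 with GSK-J4 (0.992), neither called. The belinostat difference was called with TMM size factors and without vehicle replicate 16 or belinostat replicate 20 (lowest 0.0297). ITGB8, an alpha V partner that activates latent TGF-beta, was scarce. It held 9.55, 15.9, 8.63 and 12.5 normalized counts with belinostat and 20.3, 31.7, 27.4 and 22.01 with GSK-J4, while unstimulated libraries held 9.77 to 14.0 and vehicle libraries 15.8 to 24.8. Belinostat and GSK-J4 did not overlap, with a log2 difference of -1.14 ± 0.34 and an adjusted p of 0.00937, lost without GSK-J4 replicate 22 (0.0643). Against vehicle the belinostat libraries of ITGB8 overlapped, with a log2 difference of -0.81 ± 0.34 that was not called (DESeq2 adjusted p = 0.169).

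The remaining 16 of the 28 expressed chains were called in no comparison. They include the abundant ITGAV, LAMC1, LAMA4 and LAMB2, whose log2 differences lay within -0.12 to 0.09 in all 4 comparisons. Without belinostat replicate 17, LAMA4 moved from 0.05 to 0.17 and LAMB2 from 0.03 to 0.12 between belinostat and vehicle, with neither called (DESeq2 adjusted p = 0.248 and 0.361). Among these 16, the widest differences were those of scarce chains: ITGA7 had a log2 difference of 0.88 ± 0.43 (SE) and ITGA9 of 0.80 ± 0.28 between belinostat and vehicle, at 12.2 to 22.4 and 27.3 to 47.7 mean normalized counts, with DESeq2 adjusted p of 0.277 and 0.0624. ITGA9 was called without vehicle replicate 15, belinostat replicate 19 or GSK-J4 replicate 22 (lowest adjusted p = 0.0279). Some alternative also called ITGA6 between the compounds (adjusted p = 0.0597 with all libraries, 0.00604 at the lowest), ITGA10 between GSK-J4 and vehicle (0.142 and 0.00626) and between the compounds (0.261 and 0.0234), and ITGA11 between the compounds (0.435 and 0.012).

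Marker genes also differed between the groups. The summed level of 10 smooth muscle and pericyte markers was 82631 to 86822 normalized counts with GSK-J4, 56005 to 66262 with vehicle, 45116 to 56472 with belinostat and 52430 to 74172 in unstimulated cells. The lowest belinostat sum was that of replicate 17. The other belinostat libraries held 53700 to 56472, and the highest of them overlapped vehicle. Of the 9 markers tested, 8 were higher with GSK-J4 than with vehicle, where all genes gave 1.10% higher. With belinostat 9 of 9 were lower than with GSK-J4, where all genes gave 6.00% lower. DES was not tested. Between vehicle and unstimulated cells, where all genes gave 1.10% higher, 2 of the 9, MYLK and RGS5, were higher with vehicle. So were LUM, 1 of 8 fibroblast markers, and TOP2A, 1 of 8 proliferation markers. Against vehicle, belinostat lowered 2 of the 9, ACTA2 and ACTG2, and 2 of 8 fibroblast markers, COL1A1 and PDGFRA. Of 2 endothelial markers tested TEK was higher, and all genes gave 3.12% higher and 3.13% lower. GSK-J4 raised 2 of 8 fibroblast markers, COL1A2 and COL3A1, and 2 of 6 proliferation markers tested, MKI67 and TOP2A (all genes 1.10% higher). Summed proliferation markers were 1430 to 1573 with GSK-J4 and 1217 to 1463 with vehicle. Their part in the differences of the integrin and laminin chains was not tested, and fewer cells of a type and less RNA per cell cannot be told apart in bulk samples.

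Integrins act through cytoplasmic partners that tie them to actin, and of 27 such genes and membrane partners 0 were called between vehicle and unstimulated cells by DESeq2 or by edgeR, with 4 and 5 at an unadjusted p under 0.05. With belinostat 9 of 27 were called against vehicle (3 higher, 6 lower), where the share of all genes was 6.25%, 1 with GSK-J4 (all genes 1.91%), and 12 between the compounds (3 higher and 9 lower with belinostat; all genes 12.2%). The largest change with belinostat was that of CAV1, the coat protein of caveolae, at 13903 ± 824 (SD, n = 4) normalized counts with belinostat and 10595 ± 682 with vehicle, up by 0.39 ± 0.08 (SE) on the log2 scale with a DESeq2 adjusted p of 4.14e-05. TNS3, a tensin that links integrins to actin, rose by 0.36 ± 0.09 (0.00113), and LIMS1, the PINCH adaptor of integrin-linked kinase, by 0.31 ± 0.06 (1.89e-05). CD9, a tetraspanin that associates with integrins, was lower with belinostat (-0.29 ± 0.06, adjusted p = 7.02e-05) and higher with GSK-J4 (0.25 ± 0.06, adjusted p = 0.00385) against vehicle. Among the genes called between the compounds the widest differences were those of CD9 (-0.53 ± 0.06), LIMS2 (-0.49 ± 0.08) and the focal adhesion protein ZYX (-0.47 ± 0.08), with adjusted p of 2.64e-17, 1.58e-07 and 9.84e-08. The median log2 fold change of the list was -0.05, -0.02, 0.08 and -0.11 in the 4 comparisons.

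Among 25 other basement membrane components and laminin receptors, 19 averaged at least 10 normalized counts. NID2, a nidogen that joins laminin to collagen IV, was the 1 gene of 21 tested that was called after the cytokine pulses (all genes 1.73%), with 657 ± 70.6 (SD, n = 4) normalized counts in unstimulated and 1069 ± 62.7 in vehicle cells, up by 0.70 ± 0.09 (SE) on the log2 scale with a DESeq2 adjusted p of 8.39e-13. It stood at 716 ± 57.9 with belinostat and 1325 ± 117 with GSK-J4, lower and higher than vehicle by -0.58 ± 0.09 (6.5e-09) and 0.31 ± 0.09 (0.0208). Against vehicle, 6 of the 19 tested were called with belinostat (3 higher, 3 lower), where all genes gave 6.25%. SGCE, a sarcoglycan, fell by 0.90 ± 0.18 (3.25e-05). BCAM, a laminin receptor, rose by 0.35 ± 0.11 (0.032), a call lost under 8 of 20 alternatives. NID1, the other nidogen, fell by 0.33 ± 0.08 (0.00143), while the collagen IV genes COL4A1 and COL4A2 rose by 0.28 ± 0.07 and 0.20 ± 0.05. With GSK-J4 5 of 19 were called (4 higher, 1 lower; all genes 1.91%), led by SGCE at -0.61 ± 0.18 (0.0339), COL4A5 at 0.60 ± 0.16 (0.0125) and the syndecan SDC1 at 0.52 ± 0.13 (0.00539), and edgeR called SDC1 alone. The compounds differed in 5 of 19 (all genes 12.2%), with COL4A5 at -1.05 ± 0.16, NID2 at -0.89 ± 0.09 and SDC1 at -0.77 ± 0.13. The median log2 fold change of the list was 0.07, 0.04, 0.15 and -0.05 in the 4 comparisons.

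Of 22 non-collagen ligands of integrins, 20 were tested and 3 (all genes 1.73%) were lower in vehicle than in unstimulated cells: TNC (tenascin C, -0.74 ± 0.22 SE on the log2 scale, DESeq2 adjusted p = 0.0412), THBS2 (-0.47 ± 0.14, 0.0482) and MFGE8 (-0.20 ± 0.05, 0.0162). These calls were lost under 13, 14 and 5 of 20 alternatives, and edgeR called 0 of the list, with 5 at an unadjusted p under 0.05. FN1, fibronectin and the main ligand of the ITGA5 receptor, was lower with belinostat at 36823 ± 740.0 (SD, n = 4) normalized counts and higher with GSK-J4 at 56978 ± 2932, against 46633 ± 2755 with vehicle. Its log2 fold changes were -0.34 ± 0.06 (6.36e-07) and 0.29 ± 0.06 (0.000209), and -0.63 ± 0.06 between the compounds (2.02e-24). Of the 18 ligands tested, 5 were called with belinostat against vehicle (3 higher, 2 lower; all genes 6.25%), with THBS2 at 0.51 ± 0.14 (0.00794), LTBP1, which holds latent TGF-beta in the matrix, at 0.38 ± 0.07 (2.41e-06) and EMILIN1 at -0.35 ± 0.07 (1.88e-05). With GSK-J4 2 of 18 were called (all genes 1.91%), FN1 and TNC (0.85 ± 0.22, 0.00922). Between the compounds 6 of 20 were called (all genes 12.2%), the widest of these being CCN2 at 0.78 ± 0.21 (0.00282), THBS2 at 0.75 ± 0.14 (4.04e-06) and TNC at -0.68 ± 0.22 (0.0196). The list's median log2 fold change was -0.07, 0.12, 0.04 and 0.08.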

How the data were processed

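Bulk RNA-seq was measured in 16 libraries in 4 groups of 4, grouped by sample title. Per the labels, libraries were made with the NEBNext Ultra II kit, and the submitters' processing notes name FastQC 0.11.9, MultiQC 1.14, kallisto 0.48.0 and hg38. The authors quantified reads with kallisto and deposited estimated counts per gene symbol, not scaled to library size; 27.98% of values had decimals and were rounded here. No column was left unused. Strand, transcriptome release and the sum over transcripts are not given in the sources used here.

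The integrin and laminin chains, the other gene lists and the tests were chosen with earlier results of these data known. DESeq2 1.42.0 (R 4.3.3; median-of-ratios size factors, group as the only factor, default independent filtering) was fitted on all 16 libraries, with Benjamini-Hochberg adjustment over all genes tested. Alternatives were edgeR 4.0.16 (quasi-likelihood test, TMM), TMM size factors in DESeq2, a filter of at least 10 counts in at least 4 libraries, a fit of the 8 libraries compared, and leaving out each library. Both tools were tested on simulated counts. Chains averaging at least 10 normalized counts in 1 group and called in a comparison are given per library; from each partner list, up to 3 called genes with the largest absolute log2 fold change per comparison are named, and other genes of those lists were named after their values were seen. Levels per kb use GENCODE v44 representative (MANE) transcripts. Promoter windows are from RefSeq (GRCh38.p14); 24 of the 34 chains had one, matched by symbol. Counting floors (3 counts) cover counting error only. Depth was 14.4 to 19.5 M estimated counts per library.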

Additional observations from a re-analysis of the deposited data

Results flagged for a closer look

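In each of the 112 groups formed by the 28 expressed chains and the 4 groups of 4 libraries, the outermost library was set against the others by the ratio of its gap to the whole range, with Dixon's critical value as the limit. A library lay past the limit in 7 groups, 6.25%, where chance alone gives about 1 in 20. Of these, 5 were belinostat replicate 17. It held 2283 normalized counts of ITGA2 where the other 3 belinostat libraries held 1010.2 to 1060, 3956 of ITGA5 where they held 2890 to 2956, and 14987 of ITGA8 where they held 9859 to 10434. It held 13958 of LAMA4 against 20343 to 21244, and 5759 of ITGA11 against 6111 to 6118, a narrow range of which it was 0.942 times the median. The other 2 were unstimulated libraries: replicate 3 held 1602 of ITGA4 against 1107 to 1191, and replicate 2 held 2204 of LAMA3 against 2487 to 2533.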

How the results depend on the processing

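Of the 18 calls of integrin and laminin chains, 0 reversed under the 20 alternatives, 6 held under all of them (ITGB5 and LAMA3 between belinostat and vehicle, and ITGA5, ITGA8, LAMA3 and LAMB1 between the compounds) and 8 held under edgeR. The counts of chains called moved more. Between vehicle and unstimulated cells 1 was called, but 0 by edgeR, 2 in the fit of the groups compared and 0 to 2 without 1 library. Between belinostat and vehicle 6 were called, but 2 by edgeR, 2 in the fit of the groups compared and 2 to 7 without 1 library. Between GSK-J4 and vehicle 3 were called, but 0 by edgeR, 6 in the fit of the groups compared and 0 to 6 without 1 library. Between the compounds 8 were called, and 5 to 9 without 1 library. Calls over all genes moved too: without 1 library they ranged over 180 to 454, 664 to 1117, 131 to 432 and 1312 to 2136 in the 4 comparisons. The 6 chains between GSK-J4 and vehicle came without belinostat replicate 17, beside 432 genes. Without vehicle replicate 14 or GSK-J4 replicate 23, 0 chains were called beside 139 and 137 genes. Counts over all genes in the fits of the groups compared are not given here. Over all genes edgeR called 166 where DESeq2 called 282 between vehicle and unstimulated cells, and 91 where it called 253 between GSK-J4 and vehicle. Between GSK-J4 and vehicle, edgeR called 0 adhesion partners (8 at an unadjusted p under 0.05), where DESeq2 called 1, and 1 basement membrane gene, where it called 5. Leaving out belinostat replicate 17 was an alternative chosen after seeing the data for the partner lists. Without it the adhesion partners called were 2, 7, 4 and 10 in the 4 comparisons. The basement membrane genes called were 4, 8, 6 and 8, and the ligands 5, 7, 3 and 9. Calls over all genes rose on leaving it out, from 282, 889, 253 and 1793 to 454, 1117, 432 and 2136.

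Of the 30 values of the described chains that were not called, 7 changed sign under an alternative, all of them at most 0.08 in size on the log2 scale. Over the left-out libraries the log2 fold change of ITGB1 between vehicle and unstimulated cells ranged from -0.0036 to 0.038 and that of LAMA5 from -0.069 to 0.10. The range was -0.17 to 0.0022 for LAMB3 between belinostat and vehicle. Between GSK-J4 and vehicle it was -0.026 to 0.043 for ITGB3, which was -0.0035 with TMM size factors, and -0.063 to 0.12 for LAMA3. Between the compounds it was -0.067 to 0.081 for ITGA1 and -0.051 to 0.0012 for ITGB5. The causes were not tested. Depth limits the scarce chains most: the standard errors of the log2 fold change were 0.43 for ITGA7 and 0.34 for ITGB8, against 0.04 for ITGB1. No paired analysis was possible because the groups share no replicate numbers.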
